A study of Mus musculus with 18 samples.

Results

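The kidney transcriptome of STZ-treated mice is described here across all 4 groups that received STZ, set against the groups that did not. Of the 18 kidney libraries of the series, 12 carry STZ in their treatment label and 6 do not. The mice were of the outbred ICR stock and 10 weeks old, and each group holds 3 libraries. The STZ groups were STZ alone (STZ), STZ with AOS at 10 mg/kg (STZ+AOS), STZ with an FMT labelled for AOS at 10 mg/kg (STZ+AOS-FMT) and STZ with an FMT labelled as control (STZ+control-FMT). The groups without STZ were AOS at 10 mg/kg alone (AOS) and control, with no treatment named. STZ commonly stands for streptozotocin and FMT for faecal microbiota transplantation, while AOS is not spelled out in the labels. The dose of STZ, the interval since it was given, the donors of the transplants, blood glucose and sex were not in the labels. No label says that the libraries of a group came from separate mice, and p-values therefore reflect spread among libraries that may be technical.

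Streptozotocin is a DNA-alkylating sugar analogue that enters cells through the glucose transporter encoded by Slc2a2. It destroys the insulin-producing beta cells of the pancreas and is used to make rodents diabetic, and proximal tubule cells of the kidney carry the same transporter. Insulin drives the genes of fatty acid synthesis, among them Scd1 and Fasn, while fasting and insulin lack release fatty acids that act on PPARalpha, a nuclear receptor that raises genes of fatty acid oxidation. DNA damage stabilises p53, a transcription factor that raises Cdkn1a, Mdm2, Ccng1 and other genes of cell cycle arrest and cell death.

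The values were taken as FPKM per gene, a unit that was inferred. They were summed to between 604807 and 725992 per library, and 11407 to 12607 genes reached 1 FPKM. The number of reads is unknown. A comparison of the lowest listed values put the FPKM worth of 1 read within a factor of 1.17 across libraries. It kept only values close to the lowest one of each gene, so it could not have shown a large difference in depth. The genes it used numbered between 277 in STZ+AOS 2 and 2094 in STZ 1. Kidney markers were present throughout. Slc34a1, the phosphate cotransporter of the proximal tubule, was at 1288 to 3086 FPKM with STZ and 1762 to 2908 FPKM without it, and Umod, the uromodulin of the thick ascending limb, was at 307 to 697 FPKM with STZ and 583 to 1032 FPKM without it. In whole-tissue RNA, fewer cells of a type and less RNA per cell cannot be told apart.

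Libraries within groups stood apart, and 2 of them went against their labels. The distance between libraries was taken as the root mean square difference in log2(FPKM + 1) over the 12682 genes tested. The library labelled STZ 1 lay at 0.554 on average from the other STZ libraries and at 0.359 from those without STZ. The library labelled control 3 lay at 0.483 from the STZ libraries and at 0.654 from the others without STZ. STZ+AOS-FMT 2 (0.439 to the STZ libraries and 0.379 to those without) and STZ+control-FMT 2 (0.404 and 0.401) were also slightly nearer to the libraries without STZ. Kap, an androgen-regulated protein of the proximal tubule and the most abundant transcript in 14 of the 18 libraries, made up 19.9% of the FPKM sum in the library labelled STZ 1 and 2.48% in the library labelled control 3. The comparisons that involve STZ are therefore given with all 18 libraries and, for the counts, the called genes and most lists, again without STZ 1 and control 3. That second selection was made with the values known, so its results are descriptions and do not support those from all libraries.

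**Figure D1:**
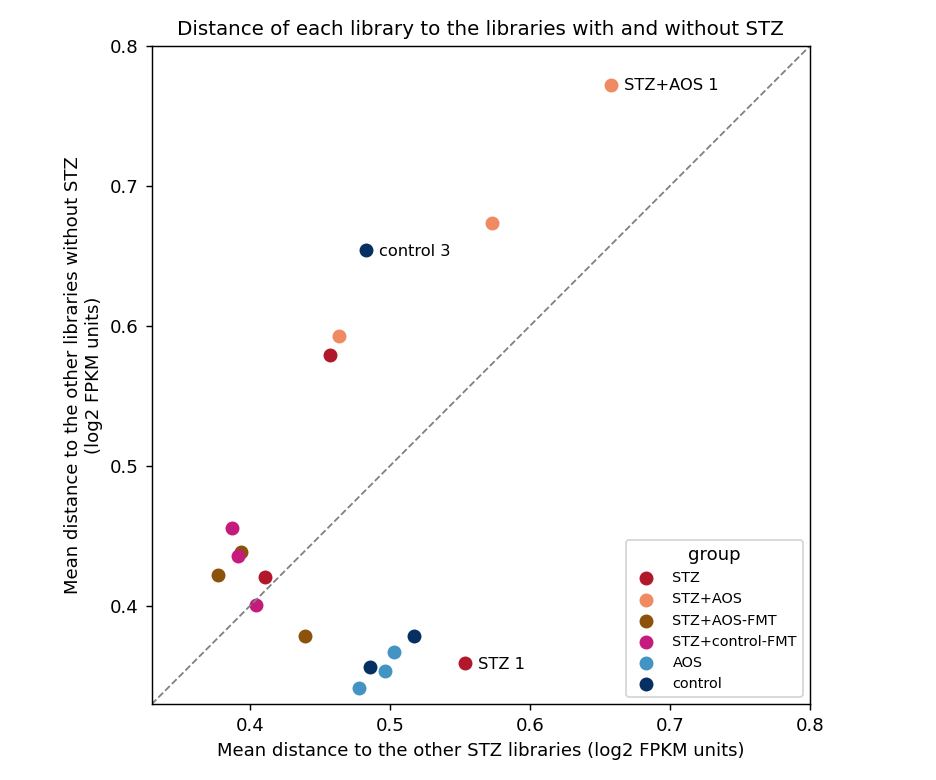
Mean distance of each of the 18 libraries to the other STZ libraries (horizontal axis) and to the other libraries without STZ (vertical axis), as root mean square log2(FPKM + 1) difference over 12682 genes. Points on one side of the diagonal are nearer to the STZ libraries and those on the other side nearer to the libraries without STZ; the library labelled STZ 1 sits at 0.554 and 0.359 and the library labelled control 3 at 0.483 and 0.654.

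Pooled over all 4 groups, STZ kidneys had lower Scd1, Ces1g, Ppic, Aadat, Vwa2 and Csf1r and higher Hebp1 than kidneys without STZ. With limma on log2(FPKM + 1), 7 of 12682 genes tested (0.0552%) passed a Benjamini-Hochberg adjusted p of 0.05, of which 1 was higher (0.00789%) and 6 were lower (0.0473%). At an unadjusted p under 0.05 there were 3584 genes (28.3%), with 2927 higher (23.1%) and 657 lower (5.18%). The values of 7 genes did not overlap between the 12 STZ libraries and the 6 without STZ (0.0552%), 4 of them higher (0.0315%) and 3 lower (0.0237%). Single libraries decided the count: without control 3 it was 4244, without STZ 1 it was 1734, and with any one of the others left out it lay between 1 and 11. With the group taken as a random block, at a correlation of 0.186 within groups, 1 gene was called, Scd1 (limma adjusted p 0.0223). The error of that fit still came from the libraries and not from the 6 group means. Scd1 was also the single one of the 7 calls kept when AOS, STZ+AOS-FMT or STZ+control-FMT was left out. The whole distribution was displaced upward: 75.9% of the genes tested had a positive difference, and the median was 0.11 on the log2 scale. That median was 0.019 after scaling by median of ratios and -0.0077 after quantile normalisation, so lists of genes are compared below with the median of all genes tested. Counts of higher list members are to be read against the 75.9%, or against 6967 of 12682 genes after median-of-ratios scaling.

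Scd1 had the lowest p of all genes tested. Scd1 encodes stearoyl-CoA desaturase, which makes monounsaturated from saturated fatty acids. It was at 22.4, 6.32 and 10.96 FPKM in STZ, 13.9, 8.34 and 7.87 in STZ+AOS, 8.35, 6.72 and 3.60 in STZ+AOS-FMT, and 4.05, 9.69 and 6.31 in STZ+control-FMT. In kidneys without STZ it was at 42.6, 41.95 and 37.1 FPKM in AOS and 82.1, 56.0 and 27.8 in control. Every STZ library lay below every library without STZ, and the 2 nearest were the libraries labelled STZ 1 (22.4) and control 3 (27.8). The means were 9.05 ± 5.08 FPKM with STZ (SD, n = 12) and 47.9 ± 19.1 FPKM without it (SD, n = 6). Scd1 fell by 2.34 ± 0.27 (SE) on the log2(FPKM + 1) scale, with a limma adjusted p of 0.00392. It was called under 42 of the 43 alternative settings, among them each of the 18 fits that left out 1 library, where its adjusted p was at most 0.0284.

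Aadat and Vwa2 also separated the libraries without overlap. Aadat, an aminotransferase of lysine and kynurenine breakdown, ranged from 77.6 to 169.7 FPKM with STZ (median 129.4) and from 185.4 to 255.3 FPKM without it (median 222.9). The lowest library was in STZ+AOS and the highest STZ library was STZ 1. Means were 124 ± 25.2 FPKM (SD, n = 12) with STZ and 223 ± 23.2 FPKM (SD, n = 6) without, and the log2 difference was -0.87 ± 0.12 (SE; limma adjusted p 0.0206). Vwa2, an extracellular matrix protein with von Willebrand factor A domains, was low throughout, at 1.71 to 3.94 FPKM with STZ (median 2.79) and 4.25 to 5.90 FPKM without it (median 5.25). The nearest libraries were again STZ 1 and control 3. Its mean was 2.73 ± 0.590 FPKM with STZ and 5.15 ± 0.606 FPKM without, a log2 difference of -0.73 ± 0.10 (SE; limma adjusted p 0.0206). Scd1, Aadat and Vwa2 were the 3 genes also called after median-of-ratios scaling and after quantile normalisation, where no gene was called higher.

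Ces1g, Ppic and Csf1r fell as well, each with overlap. Ces1g, a carboxylesterase that cleaves lipid esters, was at 0.320 to 2.12 FPKM with STZ (median 0.795) and 1.58 to 15.1 FPKM without it (median 6.15). The STZ libraries above the lowest library without STZ, control 3 at 1.58 FPKM, were STZ 1 at 2.12 and STZ+AOS-FMT 1 at 1.78. Ces1g fell by 1.94 ± 0.30 (SE; limma adjusted p 0.0342), and since it belongs to a cluster of near-identical carboxylesterase genes, its reads may have been shared out among them. Ppic, a peptidyl-prolyl isomerase of the secretory pathway, was at 18.6 to 66.9 FPKM with STZ (median 25.2) and 43.9 to 82.4 FPKM without it (median 70.1), a log2 difference of -1.25 ± 0.20 (SE; limma adjusted p 0.0342). The only STZ library inside the range without STZ was STZ 1; the next highest STZ value was 32.3 FPKM. Csf1r, the receptor through which colony-stimulating factor maintains macrophages, was at 8.23 to 15.4 FPKM with STZ (median 10.0) and 14.9 to 19.3 FPKM without it (median 16.2), a log2 difference of -0.63 ± 0.10 (SE; limma adjusted p 0.0342). STZ 1 and STZ+AOS 2, at 15.4 and 15.0 FPKM, were the STZ libraries above control 3 at 14.9.

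Hebp1 was the single gene called higher. Hebp1 encodes a small haem-binding protein. It was at 38.8, 32.7 and 50.6 FPKM in STZ, 29.6, 37.7 and 29.5 in STZ+AOS, 34.3, 45.6 and 63.75 in STZ+AOS-FMT, and 46.9, 51.9 and 40.4 in STZ+control-FMT. In kidneys without STZ it was at 17.01, 15.0 and 17.3 FPKM in AOS and 33.8, 16.96 and 30.7 in control. The AOS libraries and control 2 lay below every STZ value, and control 1 and control 3 lay inside the STZ range. Hebp1 averaged 41.8 ± 10.3 FPKM with STZ (SD, n = 12) and 21.8 ± 8.19 FPKM without it (SD, n = 6), and it rose by 0.94 ± 0.15 (SE; limma adjusted p 0.0342).

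**Figure D2:**
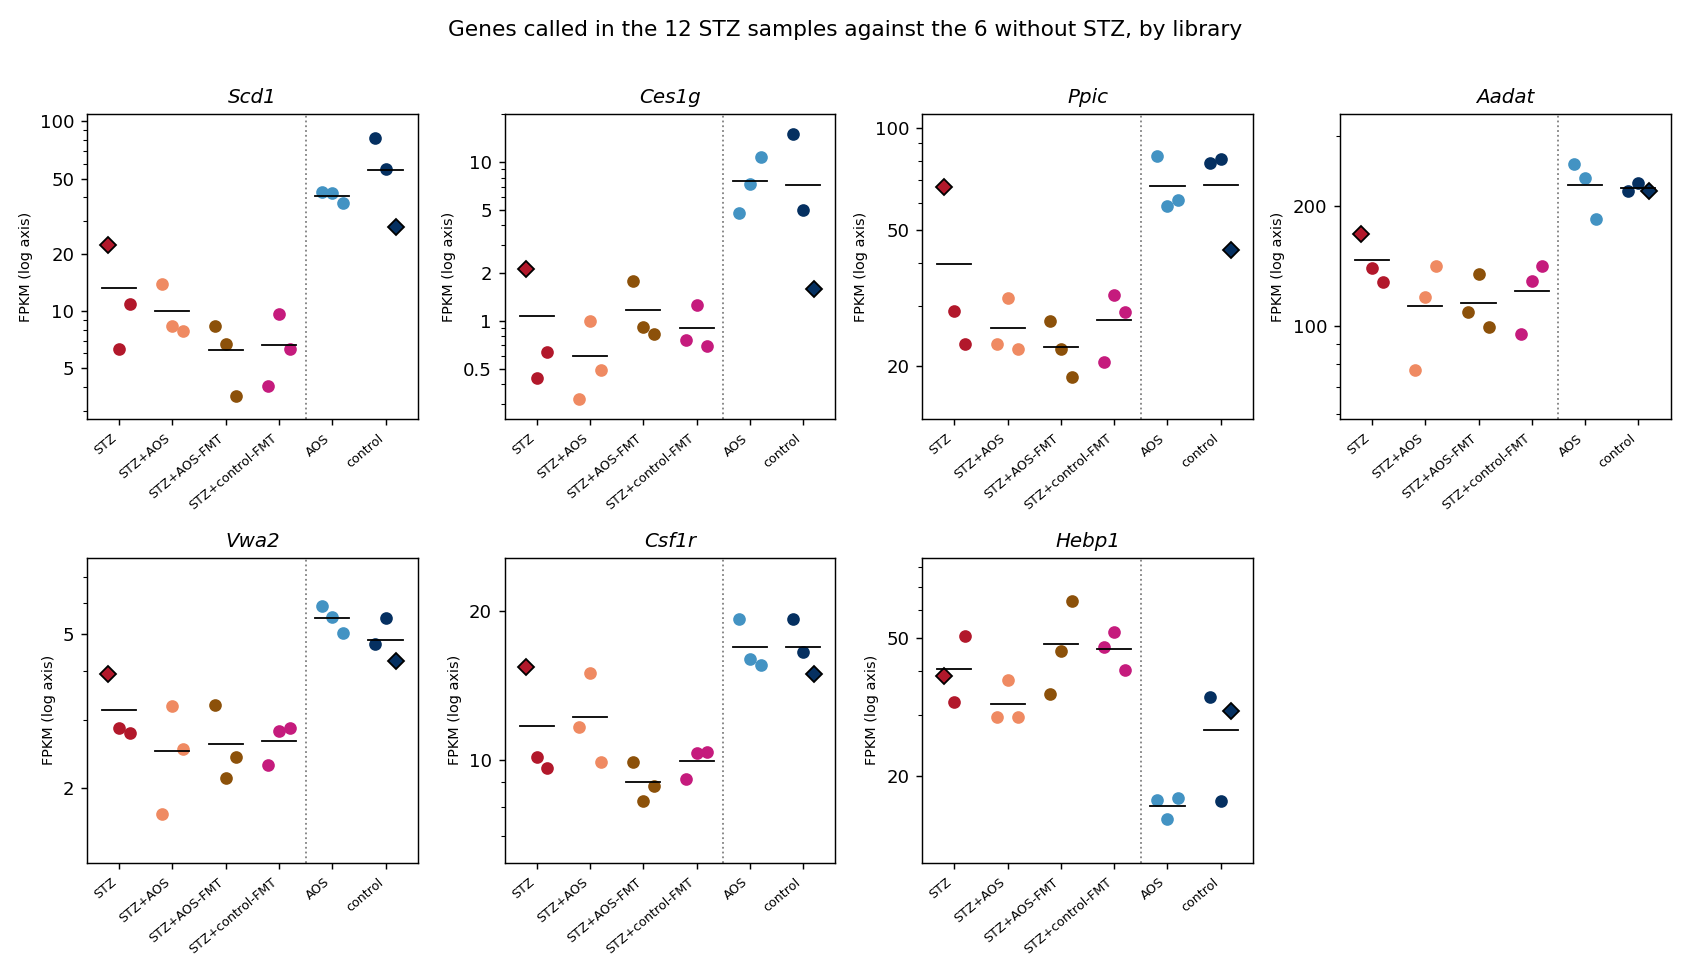
FPKM on a log axis of the 7 genes called between all STZ libraries and all libraries without STZ, one point per library and one panel per gene, with the 4 STZ groups left of the dotted line and AOS and control right of it. Bars are group means and diamonds mark the libraries labelled STZ 1 and control 3; Scd1, Aadat and Vwa2 show no overlap across the line, and Hebp1 is the one gene that is higher with STZ.

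A further 4 genes were higher in every STZ library than in any library without STZ, but none passed the adjusted threshold. Rnf187, a RING-type ubiquitin ligase, was at 119.9 to 137.7 FPKM with STZ and 101.6 to 117.2 FPKM without it, a log2 difference of 0.21 ± 0.05 (SE; limma adjusted p 0.108). Tbc1d10a, a Rab GTPase-activating protein, differed by 0.26 ± 0.06, Wsb2, a SOCS-box adaptor of ubiquitin ligases, by 0.20 ± 0.05, and Mrps35, a protein of the mitochondrial ribosome, by 0.20 ± 0.05, each with a limma adjusted p of 0.108. These differences were small against those of the genes called, and they include the general shift of 0.11. Rcan1, an inhibitor of the phosphatase calcineurin, was at 35.2 to 104.1 FPKM with STZ (median 75.3) and 26.3 to 57.8 FPKM without it (median 30.3), a log2 difference of 1.03 ± 0.20 that also missed the threshold (limma adjusted p 0.108). Acaa1a, a peroxisomal thiolase of fatty acid oxidation, had the smallest p of the higher genes not called, at 72.3 to 114.8 FPKM with STZ (median 88.6) and 64.0 to 79.2 FPKM without it (median 72.0), a log2 difference of 0.36 ± 0.06 (limma adjusted p 0.0827). Jund, a transcription factor of the AP-1 family, differed by 0.39 ± 0.07 and Grk2, a kinase of G protein-coupled receptors, by 0.28 ± 0.06 (limma adjusted p 0.108 each). Without STZ 1 and control 3, all 8 of these genes were called higher in the pooled comparison, as were 40.3% of all genes tested. Their limma adjusted p-values ran from 0.000356 for Rcan1 to 0.00549 for Wsb2, and none was called in all 4 groups. The 8 genes had been picked by p or lack of overlap in mostly the same libraries, so these calls lend them no support.

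Promoters are shown for Aadat, Vwa2, Hebp1 and Ces1g, the 4 called genes with an entry in the promoter table used here, as sequences of genes whose differences had one sign in all 4 STZ groups. Each is 300 bases of RefSeq sequence on GRCm38.p6, from 250 bases before to 50 bases after a start given by RefSeq, written along the gene's own strand. The gene spans of GENCODE M21 start elsewhere, and for Hebp1 the RefSeq start lies well inside a longer GENCODE span. Capitals mark matches, on either strand, to a CCAAT box, a GC box, a TATA box or an E-box. The Aadat window is chr8:60505874-60506173 (+), the Vwa2 window chr19:56874166-56874465 (+), the Hebp1 window chr6:135168166-135168465 (-) and the Ces1g window chr8:93337160-93337459 (-).
Aadat: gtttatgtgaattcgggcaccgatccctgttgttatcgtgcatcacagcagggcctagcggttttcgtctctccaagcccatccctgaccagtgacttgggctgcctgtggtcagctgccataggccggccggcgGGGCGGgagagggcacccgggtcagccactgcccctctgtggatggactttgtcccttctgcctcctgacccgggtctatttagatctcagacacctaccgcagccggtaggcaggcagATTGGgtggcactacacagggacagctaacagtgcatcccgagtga
Vwa2: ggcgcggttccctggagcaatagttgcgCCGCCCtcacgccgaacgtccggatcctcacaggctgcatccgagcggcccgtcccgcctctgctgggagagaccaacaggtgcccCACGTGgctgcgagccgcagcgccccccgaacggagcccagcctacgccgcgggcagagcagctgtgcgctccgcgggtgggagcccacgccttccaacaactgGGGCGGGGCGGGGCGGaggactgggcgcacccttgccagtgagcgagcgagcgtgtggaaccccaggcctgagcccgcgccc
Hebp1: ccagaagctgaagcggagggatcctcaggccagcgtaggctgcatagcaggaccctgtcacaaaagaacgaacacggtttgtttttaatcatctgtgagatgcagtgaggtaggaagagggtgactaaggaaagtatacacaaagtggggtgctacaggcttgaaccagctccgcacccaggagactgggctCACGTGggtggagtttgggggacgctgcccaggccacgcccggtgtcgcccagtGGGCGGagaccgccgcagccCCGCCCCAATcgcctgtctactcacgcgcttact
Ces1g: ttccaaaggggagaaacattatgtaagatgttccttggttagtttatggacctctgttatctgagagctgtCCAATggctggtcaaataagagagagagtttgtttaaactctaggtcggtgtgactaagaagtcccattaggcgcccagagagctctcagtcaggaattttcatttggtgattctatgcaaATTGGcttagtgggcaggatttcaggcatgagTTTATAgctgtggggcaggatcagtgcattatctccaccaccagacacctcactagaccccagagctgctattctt
Aadat held a GC box and a CCAAT box on the opposite strand. Vwa2 held 3 overlapping GC boxes just before its start, another on the opposite strand and an E-box. Hebp1 held an E-box, a GC box before the start, and past the start an opposite-strand GC box that overlaps a CCAAT box. Ces1g held a CCAAT box on each strand and a TATA box on the opposite strand. Among 32851 mouse promoter windows of the same length, 37.4% held the letters of the CCAAT box (CCAAT), and 35.7% those of the GC box as searched here (GGGCGG). The TATA box (TATAAA) was in 13.6% of windows and the E-box letters searched here (CACGTG) were in 7.15%.

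Each STZ group was then set on its own against the same 6 libraries without STZ, so the 4 comparisons share their reference. STZ gave 2 calls (0.0158%; 428 genes or 3.37% at an unadjusted p under 0.05), Prm1 and Prm2, the protamines of sperm chromatin, both higher. STZ+AOS gave 5655 calls (44.6%), 4686 higher (37%) and 969 lower (7.64%), and 6949 genes (54.8%) at an unadjusted p under 0.05. STZ+AOS-FMT gave 10 (0.0789%), 4 higher and 6 lower, with 1132 (8.93%) at an unadjusted p under 0.05. STZ+control-FMT gave 2 (0.0158%), Scd1 and Prm1, both lower, with 1125 (8.87%) at an unadjusted p under 0.05. The Prm1 calls rest on a reference of unlike groups, as Prm1 was at 9.07 to 14.51 FPKM in control and listed at 0 in AOS. Between STZ and control, Prm1 differed by 0.21 (limma adjusted p 0.9996). In STZ+control-FMT it was listed at 0, as in AOS. Prm2 was likewise listed at 0 in AOS and at 4.99 to 6.86 FPKM in control. Between the 2 groups without STZ, AOS against control gave 9 calls (0.071%), all lower, and 521 genes (4.11%) at an unadjusted p under 0.05. The split in STZ+AOS depended on scaling: 82.9% of its calls were higher on FPKM, 52.2% after median-of-ratios scaling and 43.1% after quantile normalisation. Requiring every one of the 4 groups to differ in the same direction, with the largest of the 4 p-values adjusted over all genes, gave 0 calls with limma and 58 genes at an unadjusted p under 0.05 (0.457%), 30 higher (0.237%) and 28 lower (0.221%).

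The 7 genes called in the pooled comparison had differences of one sign in all 4 groups. Scd1 differed by -1.86 in STZ, -2.11 in STZ+AOS, -2.74 in STZ+AOS-FMT and -2.66 in STZ+control-FMT. Taken singly it passed in STZ+AOS (limma adjusted p 0.00458), STZ+AOS-FMT (0.0130) and STZ+control-FMT (0.0279) and not in STZ (0.198). Ces1g differed by -1.89, -2.19, -1.75 and -1.93 in the same order, and Ppic by -0.87, -1.34, -1.52 and -1.27. Hebp1 differed by 0.92, 0.61, 1.13 and 1.12. All 7 passed in STZ+AOS on its own, and Csf1r also passed in STZ+AOS-FMT. The F test for any difference among the 4 STZ groups called none of the 7, with limma adjusted p-values from 0.306 for Csf1r to 0.906 for Ces1g. Over all genes tested, 6674 (52.6%) had 4 differences of one sign, 2927 (23.1%) had all 4 STZ group means above both means without STZ and 731 (5.76%) had all 4 below.

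**Figure D3:**
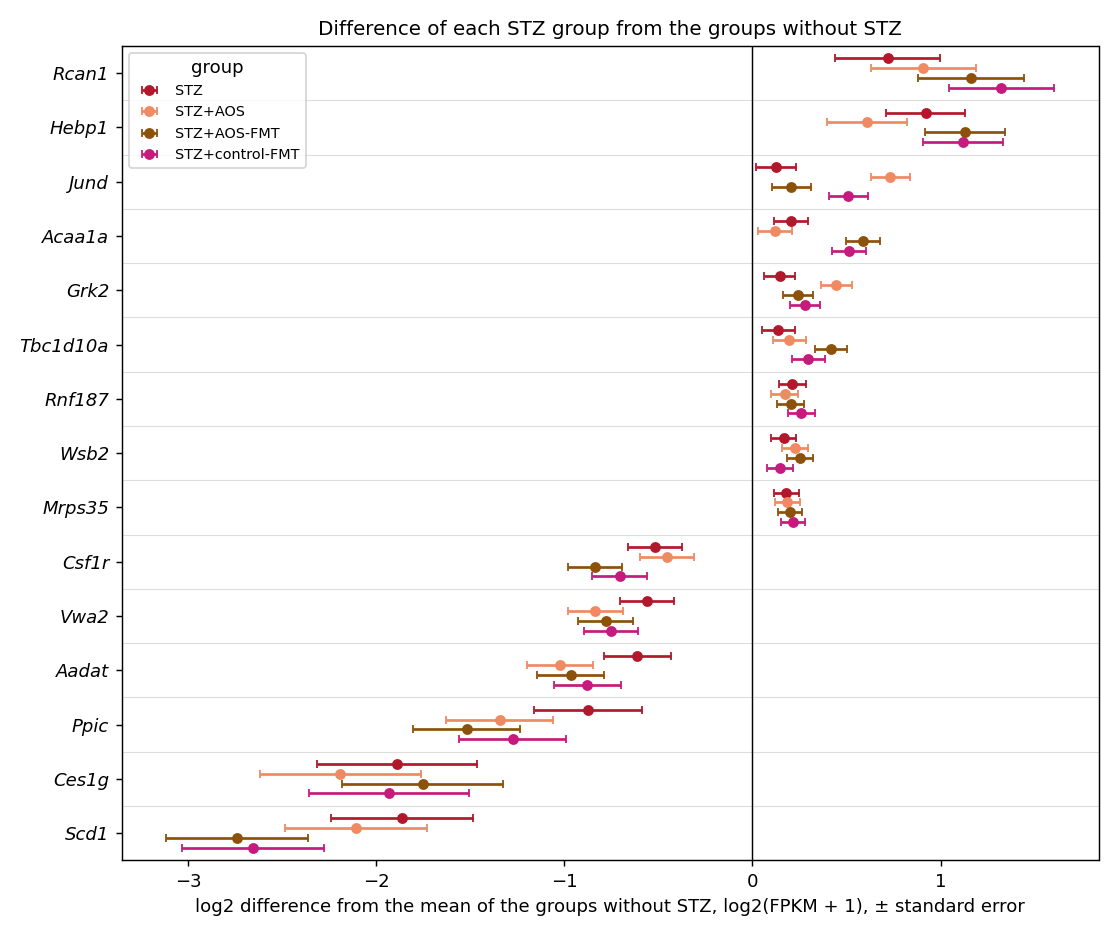
Difference of each of the 4 STZ groups from the mean of AOS and control in log2(FPKM + 1), with its standard error, for 15 genes: the 7 called in the pooled comparison, the 4 higher without overlap, and Acaa1a, Jund, Rcan1 and Grk2. The 6 lower called genes and Hebp1 keep one sign in all 4 groups, with Scd1 between -2.74 and -1.86 and Hebp1 between 0.61 and 1.13.

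Without the libraries labelled STZ 1 and control 3, the pooled comparison of 11 STZ libraries with 5 libraries called 5972 genes (47.1%), 5117 higher (40.3%) and 855 lower (6.74%). The split followed scaling here too: median of ratios gave 2209 higher and 2007 lower, and quantile normalisation 1486 higher and 2062 lower. Group by group, the calls were 2354 in STZ (18.6%), 7676 in STZ+AOS (60.5%), 903 in STZ+AOS-FMT (7.12%) and 827 in STZ+control-FMT (6.52%). Genes that differed in one direction in all 4 groups numbered 151 (1.19%), 112 higher (0.883%) and 39 lower (0.308%), with 137 after median-of-ratios scaling and 98 in both. Scd1 (-2.66; limma adjusted p over the largest of 4, 0.00374), Ppic (-1.51; 0.00385) and Ces1g (-2.35; 0.00512) were among the 39. Vwa2 (-0.80; 0.0501), Csf1r (-0.72; 0.0599), Aadat (-0.90; 0.135) and Hebp1 (1.01; 0.220) were called in the pooled comparison of these 16 libraries but not in all 4 groups. The values of 1416 genes (11.2%) did not overlap between the 11 and the 5 libraries, 1147 of them higher (9.04%) and 269 lower (2.12%).

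Genes of fatty acid synthesis were mixed, and Scd1 was the one called. Of 19 tested, 8 were higher with STZ and 11 lower, with a median of -0.17 relative to all genes tested. Fasn, fatty acid synthase, was at 17.2, 5.97 and 5.73 FPKM in STZ, 5.99, 7.63 and 6.32 in STZ+AOS, 8.51, 7.10 and 5.98 in STZ+AOS-FMT, and 5.78, 9.87 and 8.14 in STZ+control-FMT, against 12.9, 14.9 and 16.2 FPKM in AOS and 28.1, 22.3 and 7.0 in control. The library labelled STZ 1 stood among those without STZ, and the library labelled control 3 among those with it. Fasn differed by -0.97 ± 0.25 and missed the threshold (limma adjusted p 0.108). Without these libraries it differed by -1.37 ± 0.11 (limma adjusted p 9.52e-06), and in all 4 groups (0.00197). In that selection 5 of the 19 were called higher and 6 lower, against 40.3% and 6.74% of all genes. After median-of-ratios scaling 2 were called higher and 8 lower, against 17.4% and 15.8% of all genes. Of 23 cholesterol synthesis genes, 11 were higher on FPKM and 3 after median-of-ratios scaling, with none called.

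Targets of PPARalpha lay above the median of all genes and genes of fatty acid oxidation close to it, with none called. Of 19 PPARalpha targets, 17 were higher with STZ (15 after median-of-ratios scaling), with a median 0.28 above that of all genes. Cyp4a10, a fatty acid omega-hydroxylase with close paralogs, was at 94.3, 431 and 898 FPKM in STZ, 534, 730 and 425 in STZ+AOS, 323, 226 and 364 in STZ+AOS-FMT, and 350.5, 186 and 342 in STZ+control-FMT. Without STZ it was at 84.9, 74.4 and 85.7 FPKM in AOS and 93.7, 77.6 and 831 in control. Every STZ library exceeded AOS and controls 1 and 2, the library labelled STZ 1 narrowly, while the library labelled control 3 was the second highest of the 18. Cyp4a10 differed by 1.52 with all libraries (limma adjusted p 0.115) and by 2.29 without those 2. In fatty acid oxidation 16 of 23 genes were higher (13 after median-of-ratios scaling), against 75.9% of all genes (6967 of 12682 after that scaling). The 23 genes had a median 0.003 above that of all genes. Among these, Acaa2, the mitochondrial thiolase, ranged from 73.9 to 224 FPKM with STZ, against 64.7 to 219 FPKM without it. Without STZ 1 and control 3 it was called in all 4 groups, with a pooled difference of 1.15 ± 0.10 (limma adjusted p 0.00782 over the largest of 4).

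Most p53 targets had higher values with STZ. Of 24 tested, 22 were higher with STZ under FPKM, median-of-ratios and quantile scaling, with a median 0.54 above that of all genes and 0.45 without STZ+AOS; none was called with all libraries. Ccng1, cyclin G1, was at 64.8, 232 and 199 FPKM in STZ, 179, 230.1 and 162 in STZ+AOS, 169, 178 and 173 in STZ+AOS-FMT, and 168, 149 and 185 in STZ+control-FMT. Without STZ it was at 70.5, 59.4 and 62.8 FPKM in AOS and 91.4, 74.3 and 227 in control. The library labelled STZ 1 lay within the AOS range and the library labelled control 3 within the STZ range, and no other library crossed over. Ccng1 differed by 0.95 ± 0.25 with all libraries (limma adjusted p 0.108) and by 1.34 ± 0.09 without these 2 (limma adjusted p 4.17e-04 over the largest of 4).

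Cdkn1a, the cyclin-dependent kinase inhibitor p21, was at 6.52, 62.5 and 80.1 FPKM in STZ, 112, 76.0 and 155 in STZ+AOS, 31.8, 25.0 and 23.4 in STZ+AOS-FMT, and 35.3, 27.4 and 40.3 in STZ+control-FMT, against 5.20, 3.73 and 4.62 FPKM in AOS and 14.9, 7.11 and 82.6 in control. Both transplant groups were below the other STZ libraries except STZ 1, and above AOS and controls 1 and 2. Cdkn1a differed by 1.99 ± 0.49 with all libraries (limma adjusted p 0.108) and by 2.74 without those 2. Phlda3, a p53-induced inhibitor of Akt, was at 1.80 to 24.9 FPKM with STZ (median 11.8) and 1.20 to 22.0 FPKM without it (median 2.00). In the selection without STZ 1 and control 3, 22 of the 24 targets were called higher and 1 lower (20 and 2 after median-of-ratios scaling), against 40.3% of all genes called higher and 6.74% lower (17.4% and 15.8% after median-of-ratios scaling). Of the 24, 10 were called in all 4 groups, against 1.19% of all genes, and 8 of these 10 were among the 9 called after median-of-ratios scaling. These included Plk2, a polo-like kinase, at 1.59, Eda2r, a death receptor, at 1.46, Mdm2, the ubiquitin ligase that degrades p53, at 0.93 and Aen, an apoptosis-enhancing nuclease, at 0.87. The calls of Fas (limma adjusted p 0.0449) and Tnfrsf10b (0.0485), both death receptors, were near the threshold, and they became 0.0727 and 0.0525 with median-of-ratios scaling.

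NRF2 targets, which serve detoxification and the response to oxidants, were higher in 17 of 22, against 75.9% of all genes, with none called. Their median was 0.22 above that of all genes and 0.14 above it without STZ+AOS. In STZ+AOS-FMT and STZ+control-FMT taken singly, the list median was 0.056 and 0.029, against 0.062 and 0.071 for all genes. Ephx1, the microsomal epoxide hydrolase, was at 13.6, 112 and 176 FPKM in STZ, 143, 194 and 129.8 in STZ+AOS, 83.1, 69.6 and 89.3 in STZ+AOS-FMT, and 85.7, 56.4 and 98.7 in STZ+control-FMT. Without STZ it was at 19.2, 15.7 and 13.7 FPKM in AOS and 14.5, 15.8 and 202 in control. The library labelled control 3 was the highest of all 18 and the library labelled STZ 1 the lowest. Ephx1 differed by 1.83 ± 0.54 with all libraries (limma adjusted p 0.114) and by 2.72 ± 0.15 without them (limma adjusted p 3.59e-04 over the largest of 4).

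**Figure D4:**
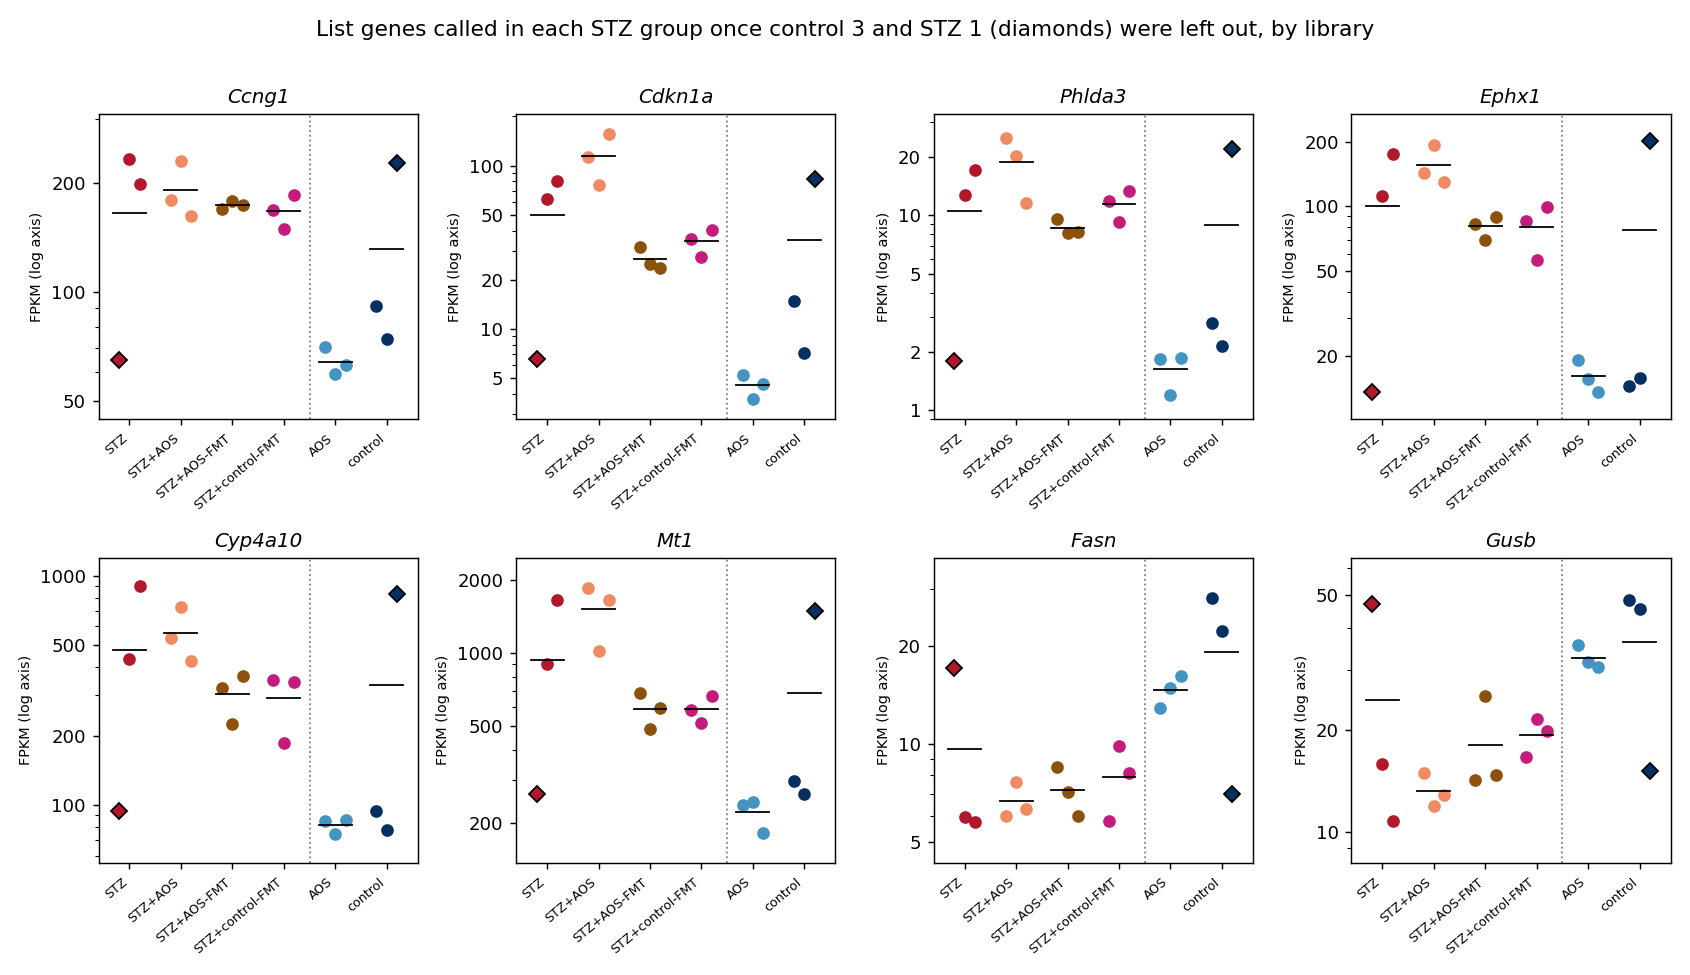
FPKM on a log axis of 8 list genes, Ccng1, Cdkn1a, Phlda3, Ephx1, Cyp4a10, Mt1, Fasn and Gusb, by library, with the STZ groups left of the dotted line and AOS and control right of it. Diamonds mark the libraries labelled STZ 1 and control 3, which lie at the level of the other side; for Ephx1 they are at 13.6 and 202 FPKM.

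Androgen-responsive kidney genes were lower. Of 17 tested, 15 were lower with STZ on FPKM and after median-of-ratios scaling, with a median 0.88 below that of all genes and 0.56 below without STZ+AOS; none was called. Kap ranged from 6174 to 144830 FPKM with STZ (median 59360) and from 15798 to 155154 FPKM without it (median 148199). AOS and controls 1 and 2 were all at or above 144521 FPKM; the library labelled STZ 1 was close to them at 144830 FPKM, and the next STZ library was at 85880.2 FPKM. Kap differed by -1.13 ± 0.55 with all libraries (limma adjusted p 0.185) and by -1.86 without those 2 (limma adjusted p 0.00433), but not in all 4 groups (0.560). Gusb, beta-glucuronidase, which androgen raises in mouse kidney, was at 10.8 to 47.1 FPKM with STZ and 15.2 to 48.5 FPKM without it. It differed by -0.87 with all libraries and, without those 2, by -1.28 in a call made in all 4 groups (limma adjusted p 0.0138). In that selection 1 of the 17 was called higher and 12 lower, against 40.3% and 6.74% of all genes, and after median-of-ratios scaling 0 and 12, against 17.4% and 15.8%.

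Immediate early genes, induced rapidly by many stimuli including tissue handling, were higher in 18 of 18, with a median 0.76 above that of all genes and 0.60 without STZ+AOS. Glucocorticoid-responsive and metallothionein genes were higher in 17 of 18, with a median 0.53 above that of all genes and 0.34 without STZ+AOS. Neither list had a gene called with all libraries; without STZ 1 and control 3, 17 of the 18 immediate early and 13 of the 18 glucocorticoid and metallothionein genes were called higher, against 40.3% of all genes. Mt1, a zinc-binding metallothionein, was at 264.4, 901 and 1663 FPKM in STZ, 1860.4, 1025 and 1665 in STZ+AOS, 684, 489 and 593 in STZ+AOS-FMT, and 583, 519 and 671 in STZ+control-FMT, against 238, 244 and 183 FPKM in AOS and 297, 264.01 and 1491 in control. Its difference of 1.25 missed the threshold with all libraries, and Mt2 differed by 1.43. Without STZ 1 and control 3 both were called in all 4 groups, Mt1 at 1.83 (limma adjusted p 0.0174) and Mt2 at 2.10 (limma adjusted p 0.0303).

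Tubular injury and fibrosis genes were higher in 20 of 20 and 26 of 26, with medians 0.46 and 0.27 above that of all genes, and none was called. Without STZ+AOS the medians were 0.16 and 0.17, and without the libraries over 100 FPKM of Cyp11b1 (STZ+AOS 1, STZ+AOS 3 and control 3) they were 0.64 and 0.35. Without STZ 1 and control 3, 13 of the 20 injury genes and 17 of the 26 fibrosis genes were called higher, against 40.3% of all genes, but none in all 4 groups. Havcr1, the kidney injury molecule of damaged proximal tubules, was at 1.30, 5.87 and 5.16 FPKM in STZ, 423, 31.98 and 7.45 in STZ+AOS, 2.91, 2.77 and 2.91 in STZ+AOS-FMT, and 2.32, 3.05 and 3.27 in STZ+control-FMT, against 2.27, 1.63 and 2.06 FPKM in AOS and 2.03, 1.85 and 19.4 in control. The transplant groups were thus within a few FPKM of AOS and controls 1 and 2, and the high values were in STZ+AOS. Lcn2, a secreted iron carrier released by injured tubules, ranged from 1.90 to 772 FPKM with STZ (median 10.4) and from 2.06 to 35.1 FPKM without it (median 3.49), with its highest value in STZ+AOS 1 as well.

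Genes of glucose handling had medians slightly above that of all genes tested. Of 13 glucose transport genes 11 were higher (median 0.08 above that of all genes), of 14 gluconeogenesis genes 11 (0.04), of 15 glycolysis genes 14 (0.07) and of 11 polyol and fructose genes 9 (0.08), with none called in any of these lists. Without STZ+AOS these medians were 0.20, 0.15, 0.09 and 0.16 above that of all genes, and without STZ 1 and control 3 they were 0.19, 0.08, 0.08 and 0.22. Slc5a2, the main sodium-glucose cotransporter of the proximal tubule, differed by 0.15. Slc2a2, the low-affinity glucose transporter at the basolateral side, was at 33.6 to 76.1 FPKM with STZ and 31.6 to 64.8 FPKM without it, a difference of 0.52. Without STZ 1 and control 3 Slc2a2 was called in the pooled comparison at 0.77 ± 0.09 (limma adjusted p 7.66e-05), but not in all 4 groups (0.0894). In that selection 12 of 15 glycolysis genes were called higher on FPKM and 3 after median-of-ratios scaling, and 7 and 5 of 13 glucose transport genes, against 40.3% and 17.4% of all genes.

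Immune and stress lists lay above the median of all genes by less than the p53 targets. Interferon-stimulated genes were higher in 24 of 24 on FPKM and after median-of-ratios scaling, with a median 0.23 above that of all genes and 0.16 without STZ+AOS. Complement and fibrinogen genes were higher in 15 of 17 (0.24, and 0.12 without STZ+AOS), chemokines and cytokines in 11 of 17 (0.17 and 0.04), MHC class II genes in 8 of 10 (0.10 and 0.12) and heat shock and endoplasmic reticulum stress genes in 16 of 26 (0.02 with all libraries). No member of these lists was called with all libraries. In the selection without STZ 1 and control 3, 15 of the 24 interferon-stimulated genes were called higher in the pooled comparison (8 after median-of-ratios scaling), against 40.3% of all genes (17.4%). Called there in all 4 STZ groups, against 1.19% of all genes, were 2 of the 17 chemokine and cytokine genes. They were the chemokine Cxcl10 (limma adjusted p 0.0445) and the adhesion molecule Icam1 (0.0389). With median-of-ratios scaling these became 0.0779 and 0.0398, and with quantile normalisation 0.0990 and 0.0821. None of the interferon, complement, MHC class II or heat shock genes was called in all 4 groups on FPKM.

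Among lists of core machinery, direction depended on scaling. Of 29 oxidative phosphorylation genes 17 were higher on FPKM and 5 after median-of-ratios scaling, and of 26 proteasome genes 10 and 2. Of 30 ribosomal protein genes 30 and 29 were higher, with a median 0.10 above that of all genes, and of 21 cell cycle genes 21 and 20, with a median 0.26 above it. No member of these lists was called with all libraries.

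Markers of cell types other than tubule varied with single libraries and with STZ+AOS. Csf1r was the one marker called, while 10 of the 12 macrophage markers tested were higher, with summed values of 122 to 452 FPKM with STZ (median 176) and 94.6 to 258 FPKM without it (median 140.3). No other macrophage marker was called. Podocyte, endothelial and fibroblast markers were higher in 10 of 10, 11 of 11 and 11 of 11, with medians 0.32, 0.29 and 0.33 above that of all genes. Without STZ+AOS these medians were 0.23, 0.16 and 0.19 above it. Proximal tubule markers summed to 8161 to 17169 FPKM with STZ (median 15179) and 14027 to 16881 FPKM without it (median 15042). Adrenal cortex markers were higher in 11 of 11 with all libraries and in 1 of 11 without STZ+AOS, their sum ranging from 7.80 to 3632 FPKM with STZ (median 17.6) and from 8.96 to 1033 FPKM without it (median 10.2). Cyp11b1, an adrenal enzyme that completes glucocorticoids, measured 316, 14.3 and 276 FPKM in STZ+AOS, 117.9 in the library labelled control 3, 5.13 in STZ 2 and STZ 3, and at most 0.15 in all others. Adipocyte markers were higher in 9 of 10, with sums of 203 to 1615 FPKM with STZ (median 782) and 169.9 to 658 FPKM without it (median 309.9). Without the libraries over 100 FPKM of Cyp11b1, all 7 pooled calls were kept among 4087, and the medians relative to all genes were 0.69 for p53 targets, -1.03 for androgen-responsive genes and 0.64 for tubular injury genes. Those libraries include control 3, and leaving out control 3 alone gave 4244 calls. The part of the adrenal markers in these values cannot be told apart from that of control 3. The part of the other cell type markers in the results was not tested.

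**Figure D5:**
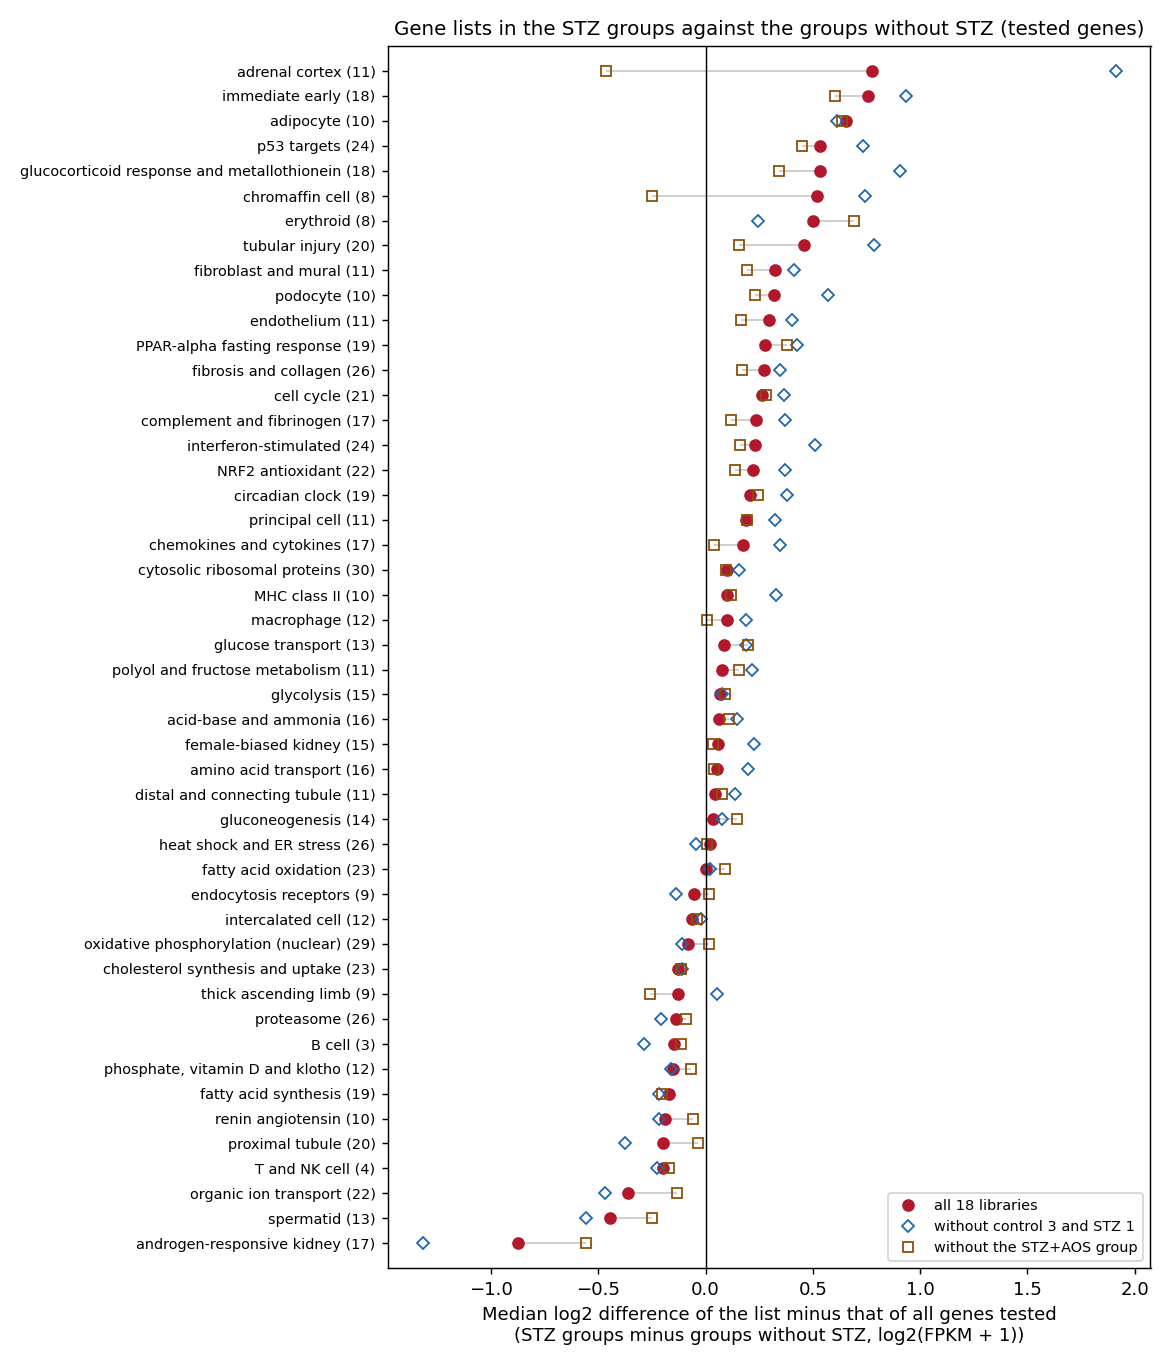
Median log2 difference between STZ and non-STZ libraries of each gene list minus the median of all genes tested, for all 18 libraries, without the libraries labelled STZ 1 and control 3, and without STZ+AOS. The p53 targets are at 0.54 and the androgen-responsive genes at -0.88 with all libraries; the adrenal cortex markers change from 0.78 to -0.46 without STZ+AOS.

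The effect of STZ was also taken with and without AOS. STZ against control gave 0 calls with limma and 161 genes at an unadjusted p under 0.05 (1.27%), while STZ+AOS against AOS gave 5895 calls (46.5%), 4985 higher (39.3%) and 910 lower (7.18%), and 7173 genes (56.6%) at an unadjusted p under 0.05. After median-of-ratios scaling the second comparison split into 2191 higher and 1980 lower. The difference between the 2 effects, tested as an interaction over all 18 libraries, was called for 0 genes with limma and reached an unadjusted p under 0.05 for 4240 (33.4%). When Kap was left out of the sum used for scaling, 825 genes were called, 768 of them higher. Scd1 differed by -2.02 between STZ and control (limma adjusted p 0.714) and by -1.95 between STZ+AOS and AOS (limma adjusted p 0.00734), with an interaction of 0.07 (limma adjusted p 0.939). Without the libraries labelled STZ 1 and control 3, STZ against control gave 1105 calls (8.71%), STZ+AOS against AOS gave 7155 (56.4%), and the interaction again gave 0. Its count otherwise rested on single libraries, with 3044 calls without STZ 3 and 793 without STZ+AOS 2.

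Differences among the 4 STZ groups were called for 273 genes (2.15%) with limma's F test, and 3367 (26.5%) had an unadjusted p under 0.05. With 1 library left out the count ran between 17 (without STZ+AOS 1) and 1538 (without STZ 3), and it was 1452 without control 3; for 15 of the 18 libraries it moved by over 1.5 times. Several of the leading genes were abundant proximal tubule enzymes that were low in STZ+AOS. Nat8f1, of an acetyltransferase family, averaged 271 ± 62.9 FPKM in STZ, 113 ± 19.2 in STZ+AOS, 320.2 ± 25.6 in STZ+AOS-FMT and 241 ± 7.58 in STZ+control-FMT, against 324 ± 18.3 in AOS and 270.1 ± 38.1 in control (SD, n = 3 each; limma F adjusted p 0.000792). Fmo1, a flavin monooxygenase that oxidises drugs and amines, averaged 374 ± 39.1 FPKM in STZ, 238 ± 48.6 in STZ+AOS, 490.3 ± 27.4 in STZ+AOS-FMT and 404 ± 22.6 in STZ+control-FMT, against 387 ± 25.5 in AOS and 332.5 ± 37.1 in control (limma F adjusted p 0.0106). For both genes the 3 STZ+AOS libraries lay below every other library of the series.

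Cmbl, a cytosolic hydrolase, was at 119.7 to 182 FPKM in STZ+AOS and 221 to 291 FPKM in the other STZ libraries, against 206 to 235 FPKM without STZ (limma F adjusted p 0.0115). Fam151a followed the same order, at 59.3 to 99.5 FPKM in STZ+AOS and 118 to 169 FPKM in the other STZ libraries, against 105 to 134 FPKM without STZ (limma F adjusted p 0.0115). Sumo3, a ubiquitin-like modifier, was instead lowest in STZ+AOS-FMT, at 25.7 ± 0.942 FPKM, with 34.7 ± 4.08 in STZ, 40.2 ± 1.55 in STZ+AOS and 32.2 ± 1.57 in STZ+control-FMT, against 39.5 ± 1.98 in AOS and 38.6 ± 2.10 in control (SD, n = 3 each; limma F adjusted p 0.0130). Acaa1a was highest in the transplant groups, differing from the libraries without STZ by 0.21 in STZ, 0.12 in STZ+AOS, 0.59 in STZ+AOS-FMT and 0.51 in STZ+control-FMT (limma F adjusted p 0.0461). Jund differed by 0.13, 0.73, 0.21 and 0.51 in the same order (limma F adjusted p 0.0373). Prm1 was at 20.8, 14.0 and 6.64 FPKM in STZ and at 9.07, 9.44 and 14.5 FPKM in control, with a listed value of 0 in each of the other 12 libraries (limma F adjusted p 5.09e-06).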

How the data were processed

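RNA of 18 mouse kidney samples in 6 groups of 3 was sequenced. The authors deposited one table of 19545 gene entries with 1 FPKM value per sample, per the labels and file headers; the unit was inferred from the values, whose sums became nearly equal across libraries once multiplied by gene length. The submitters' processing notes name Bowtie 0.12.2 and the mm10 build; the counter, the annotation and the number of reads were not stated.

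The 12682 genes that reached 1 FPKM in 3 or more libraries were analysed as log2(FPKM + 1) with limma 3.58.1 in R 4.3.3 (trended, robust variance; 6 group means), with Benjamini-Hochberg adjustment over all genes tested. The log2 differences understate the change of low genes. The pooled comparison set the mean of the 4 STZ group means against the mean of AOS and control. Genes shared by all 4 groups were judged by the largest of their 4 p-values when all signs were equal. Differences among STZ groups used an F test, and the effect of STZ with and without AOS an interaction.

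The comparison and the 48 gene lists, 16 of them cell type markers, were chosen with earlier results of these data known. Genes named outside the lists, each with a mean of at least 5 FPKM on its higher side, were the pooled calls, filled to 5 higher genes by smallest p, those without overlap and the 6 with the largest F; Prm2 and list members named were chosen after their values were seen. Alternatives were other scalings, filters, pseudocounts and variance models, a replicate block, and omission of libraries and groups; leaving out STZ 1 and control 3 was chosen with their values known. Simulated data held 200 changed genes, all at a mean of about 5 FPKM or more. Of those changed by 1 on the log2 scale the pooled test recovered 95%, with 12 false calls. The test of genes shared by all 4 groups recovered 82%. The simulated noise was independent among genes and no library went against its label, so these rates need not hold for the real libraries.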

Additional observations from a re-analysis of the deposited data

Results flagged for a closer look

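Genes whose response differed among the 4 STZ groups, by limma's F test with adjusted p-values over all genes tested, were Prm1 (5.09e-06), Nat8f1 (0.000792), Fmo1 (0.0106), Fam151a (0.0115), Cmbl (0.0115), Sumo3 (0.0130), Jund (0.0373) and Acaa1a (0.0461). Nat8f1, Fmo1, Fam151a and Cmbl were lowest in STZ+AOS, at differences of -1.38, -0.61, -0.63 and -0.59 from the libraries without STZ. Sumo3 was lowest in STZ+AOS-FMT at -0.59, Acaa1a was highest there at 0.59, and Jund was highest in STZ+AOS at 0.73. Prm1 was above 5 FPKM in the STZ and control libraries and listed at 0 in the other 12.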

How the results depend on the processing

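The pooled count of 7 was 3 after quantile normalisation, 3 after median-of-ratios scaling, 6122 with a weight for each library and 1 with the group as a random block. It was 5972 without STZ 1 and control 3 (4216 with median of ratios, 3548 with quantile normalisation, 4874 without STZ+AOS as well), 4087 without the libraries over 100 FPKM of Cyp11b1 (control 3 among them), 2 in the libraries with Prm1 over 5 FPKM and 4172 in the others. The libraries with Prm1 over 5 FPKM are those of STZ and control, so this split changes the groups compared. Its 2 calls came from a fit of those libraries alone. The fit of all 18 libraries gave 0 for STZ against control. Leaving out a group gave 1308 (STZ), 1 (STZ+AOS-FMT), 1 (STZ+control-FMT), 5 (AOS, with 590 genes at an unadjusted p under 0.05) and 176 (control); Scd1 was the one of the 7 kept without STZ+AOS-FMT, STZ+control-FMT or AOS, and 5 of the 7 were kept without STZ+AOS. Leaving out 1 library gave 1 to 4244: 1 without STZ 2, STZ+AOS-FMT 3, AOS 1, AOS 2 or control 2, 2 without AOS 3, 3 without STZ+AOS 1, STZ+AOS-FMT 2, control 1 or any STZ+control-FMT library, 11 without STZ+AOS 2, 1734 without STZ 1 and 4244 without control 3. The count of 0 genes shared by all 4 groups was 151 without STZ 1 and control 3 (137 with median of ratios, 100 with quantile normalisation, 564 without STZ+AOS as well). It was 4 without the STZ group, 2 and 95 in the libraries with and without Prm1 over 5 FPKM, and 0 with each library left out. Where an STZ group was absent, only the STZ groups present were required to differ. The 564, 4, 2 and 95 are therefore not counts of genes shared by all 4 groups. The 2 are calls of STZ against control, as STZ was the only STZ group among those libraries. The F test count of 273 was 433 with median of ratios, 1458 with Kap outside the total, 755 with no filter, 671 with weights, 442 at a pseudocount of 5, and 2543 without STZ 1 and control 3 (1954, 1467 and 32 in the same order as above). It was 14 without the Cyp11b1 libraries, 3454 in libraries without Prm1, and 1488, 13, 14, 102, 20 and 956 without STZ, STZ+AOS, STZ+AOS-FMT, STZ+control-FMT, AOS and control; with 1 library left out it ran between 17 (STZ+AOS 1) and 1538 (STZ 3), with 103 without STZ 2, 725 and 43 without STZ+AOS 2 and 3, 24, 21 and 42 without STZ+AOS-FMT 1, 2 and 3, 39, 39 and 115 without STZ+control-FMT 1, 2 and 3, 63, 68 and 57 without AOS 1, 2 and 3, and 1452 without control 3. The interaction count of 0 was 825 with Kap outside the total, 3 with no filter, 1 at a mean of at least 5 FPKM, and 0 to 3044 with 1 library left out (1 without STZ 2, 793 without STZ+AOS 2, 3044 without STZ 3). Replicate numbers in the titles showed no common pairing of the samples. Over 45 pairs of same-numbered libraries the correlation of deviations ran between -0.258 and 0.667, with a median of -0.00377 and 15 pairs over 0.1. A pairing of some of the samples cannot be told from these values. With the replicate number as a block the pooled count was 11, which kept all 7, the F count 601, and the shared and interaction counts 0. Scd1 was called in 42 of 43 alternatives, Aadat in 32, Hebp1 and Csf1r in 23 each and Ppic in 22, and Vwa2 and Ces1g in 30 and 21 of 42; none of the 7 changed sign. Of other named genes, Prm1 was higher with STZ (0.94) without the control group with a limma adjusted p of 0.0480, and Cmbl (0.21; 0.00824) without STZ 1, control 3 and STZ+AOS. The cause of these changes was not tested. FPKM gives no counting error, so low genes such as Vwa2 and Ces1g have an unknown depth behind them.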

Other observations

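Carbonic anhydrases, a claudin and a kynurenine enzyme also differed once the libraries labelled STZ 1 and control 3 were left out, and none of these was called with all 18 libraries. Car15, a membrane carbonic anhydrase of the tubule, was at 133 to 219 FPKM in the remaining STZ libraries and 62.8 to 82.9 FPKM in those without STZ, and it rose by 1.248 ± 0.10 (limma adjusted p 0.00174 over the largest of the 4 group p-values). Car4, the membrane carbonic anhydrase of the proximal tubule, fell by 0.98 ± 0.09 (0.00902), and Cldn10, a claudin of the thick ascending limb and proximal tubule, fell by 0.78 ± 0.08 (0.0310). Kynu, which cleaves kynurenine in the same tryptophan pathway as Aadat, rose by 2.38 ± 0.22 (0.00855). Its values were 8.19 to 35.75 FPKM in the remaining STZ libraries and 1.27 to 2.70 FPKM in those without STZ.

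Of 22 organic ion transporters 9 were higher with STZ in all libraries, with a median 0.36 below that of all genes and 0.13 below it without STZ+AOS. Of 19 clock genes 14 were higher on FPKM and 10 after median-of-ratios scaling. Dbp, a clock output gene whose level depends on the hour of the day, ran between 6.99 and 113.7 FPKM with STZ and between 2.76 and 90.6 FPKM without it; no hour of collection is in the labels.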
